A study of Mus musculus with 2 samples.

Results

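Transcripts of the Sox, Fox, GATA, T-box and helix-loop-helix transcription factor families were compared between mouse EB cells at day 4 and mouse ES cells at day 0, with 1 RNA sample and 1 bead array for each. The labels expand neither abbreviation. In stem cell work ES stands for embryonic stem cells, and EB for embryoid bodies, which are clumps of ES cells left to differentiate. The cell line, the medium and any feeder layer are not given in the sources used here. With 1 array per group no test across samples could be made and no p-value is given. Culture, array position and day cannot be told apart.

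Members were chosen by symbol. A zero-padded number of at least 10000 in a probe's identifier was read as a mouse NCBI Gene number. Symbols that begin with the letters of these families were then kept, among them Hand, Mesp, Id1 to Id4, Neurod, Neurog, Ascl, Twist, Tal, Tcf12, Tcf21, Olig, Myf, Bhlh and Snai. Sox2 and Gata3 begin with the same letters and are not part of the set. The rule reads no measured value, although the families were picked with results of these data known. It gave 35 of 8102 named genes, on 46 probes. Of these 35, Sox2ot is a noncoding transcript and Twistnb a subunit of RNA polymerase I, so 33 are factors. They are 13 Fox genes, 7 Sox genes, 7 T-box genes, Gata4, Id3, Tcf12, and the tissue helix-loop-helix genes Ascl2, Bhlha15 and Olig2. Most of these families have further mouse genes, which are not analysed here.

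The families share DNA-binding folds rather than functions. Sox proteins bend DNA through an HMG box, Fox proteins bind through a forkhead domain, GATA factors through zinc fingers and T-box factors through the domain first known from Brachyury. Basic helix-loop-helix factors bind E-boxes as pairs, usually of a tissue-restricted protein with a widely expressed E protein, and Id proteins block such pairs because they lack the basic region that touches DNA. In the early mouse embryo members of all these families take part in leaving pluripotency and in laying down mesoderm, endoderm and neural tissue.

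Signals are means over the beads of a probe, quantile normalized over both arrays, in arbitrary units. The signal floor was 230.0, the normalized signal that matches a detection score of 0.99 in the EB array. A gene was read at its probe with the highest mean signal. Log2 differences are EB minus ES. A gene counted as past the size limit where this was 1 or more in size, a 2-fold difference, and 1 array or both exceeded the floor. Where the dimmer signal was under the floor, the fold is a lower bound taken against the floor. The error after ± is the standard error over beads within the arrays (n = 1 array per group), and it leaves out the variation between cultures. Both arrays had like brightness before normalization, with median signals of 173.3 in EB and 173.9 in ES, and medians of 37 and 38 beads per probe.

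Of the 9 named genes among 14 markers of undifferentiated ES cells, 5 were above the floor in EB and 9 in ES, and their summed signal was 4838 in EB and 43237 in ES. Of the 8 named genes among 13 markers of fibroblasts, which are used as feeder cells, 3 were above the floor in EB and the same number in ES, with summed signals of 4289 in EB and 4104 in ES. Col1a2, Col3a1, Dcn, Postn and S100a4 of that list were under the floor in both arrays. Within it Fbln2 was 6.04-fold higher and Col1a1 2.58-fold lower in EB. Their part in the results on the factors was not tested.

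Of the 33 factors 13 (39.4%) exceeded the floor in at least 1 array, against 47.7% of all 8102 named genes. Gata4 was higher in EB past the size limit, Foxp1 and Sox15 were lower past it, and the other 10 were under it. Among all 3867 named genes above the floor 9.08% were past the limit, 3.72% higher and 5.35% lower. Foxp1 alone had a fold or bound of at least 2, since Gata4 and Sox15 each had 1 signal under the floor. In RNA from whole cultures a change in the share of cells that make a transcript and a change in its amount per cell cannot be told apart. The plot of signals by gene shows both arrays for the 13 factors.

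**Figure D1:**
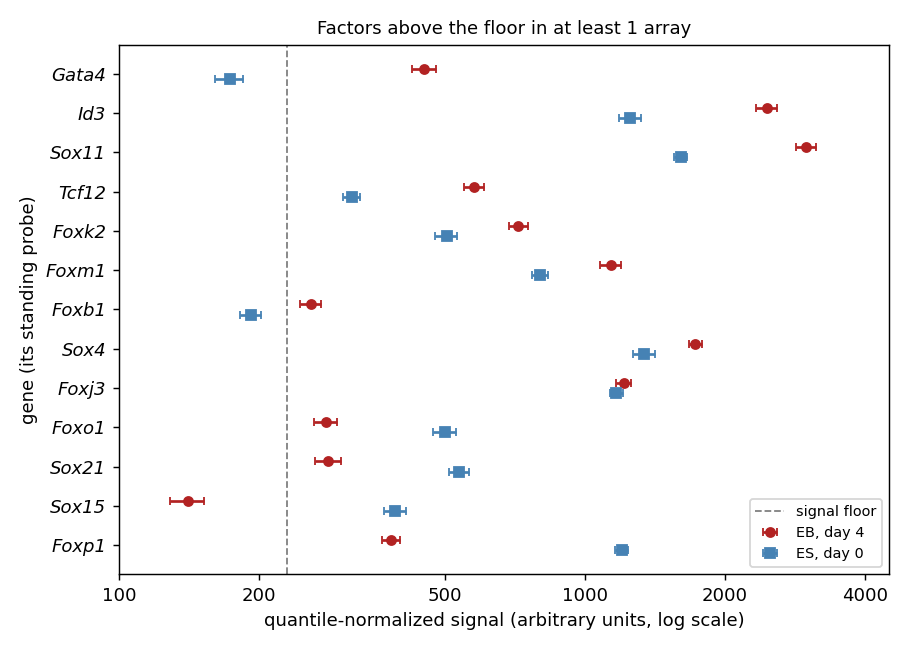
Quantile-normalized signal (horizontal, log scale, arbitrary units) of the 13 factors above the floor in at least 1 array, with EB at day 4 as circles and ES at day 0 as squares; bars are bead-level standard errors and the dashed line is the signal floor of 230.0. Foxp1, Sox15, Sox21 and Foxo1 lie farther left in EB, and 8 of the other 9 genes lie visibly farther right; the symbols of Foxj3 overlap.

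The Sox genes parted into a higher and a lower pair. Sox15, a Sox gene transcribed in undifferentiated mouse ES cells, had a signal of 141 in EB, under the floor, against 392 in ES. It was at least 1.70-fold lower, with a log2 difference of -1.48 ± 0.14. The EB detection score of its probe was 0.18, on a scale where bright probes score 1. Sox15 was thus measurable in ES and not above background in EB.

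Sox21, known from neural progenitors as an antagonist of the Sox1, Sox2 and Sox3 activators, had a signal of 282 in EB and 537 in ES. It was 1.91-fold lower, a log2 difference of -0.93 ± 0.12. The EB signal of Sox21 lay near the floor, and the difference just under the size limit.

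Sox11 and Sox4 are closely related genes of the SoxC group, active in differentiating progenitors, above all of the nervous system. Sox11 had a signal of 2988 in EB and 1605 in ES, 1.86-fold higher, with a log2 difference of 0.90 ± 0.08. Sox4 had 1727 in EB and 1341 in ES, 1.29-fold higher, with a log2 difference of 0.37 ± 0.09. Both were well above the floor in each array and both were higher in EB, Sox11 by more than Sox4 on the log2 scale. Neither passed the 2-fold limit. Of 10 neural markers 5 could be named, of which 1 was above the floor in EB and 2 in ES. Nes, an intermediate filament of neural progenitors, had 416 in EB and 415 in ES. Sox5 and Sox6, SoxD genes of cartilage and glia, and Sox12, the remaining SoxC gene, were under the floor in both arrays. The EB signal of Sox5 (220, with a detection score of 0.986) was the nearest to the floor among all factors under it.

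Gata4, a GATA factor needed in heart muscle and in extraembryonic endoderm, was the 1 GATA gene in the set. Its signal was 452 in EB and 173, under the floor, in ES. It was at least 1.97-fold higher, with a log2 difference of 1.39 ± 0.13. Gata4 was thus above the floor in EB only. Of the heart markers that could be named, Myl7, an atrial myosin light chain, was 3.28-fold higher in EB, while Mef2c and Tbx5 were under the floor in both arrays. Of the endoderm markers besides Gata4 only Apoa1, an apolipoprotein of liver and yolk sac, could be named, with 536 in EB and 490 in ES.

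Id3 and Tcf12 stand on opposite sides of the helix-loop-helix system. Id3, an inhibitor whose gene responds to BMP signals, had a signal of 2457 in EB and 1253 in ES. It was 1.96-fold higher, with a log2 difference of 0.97 ± 0.10. Tcf12, which encodes the E protein HEB, had 579 in EB and 316 in ES. It was 1.83-fold higher, with a log2 difference of 0.87 ± 0.10. An inhibitor and a partner of the tissue factors were therefore both higher in EB, and neither passed the size limit in the main values. Tcf4, another E protein outside the set and named here after its values were seen, had 4049 in EB and 3426 in ES, a log2 difference of 0.24.

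The tissue-restricted partners that could be named did not reach the floor. Ascl2, of the trophoblast, had 188 in EB and 186 in ES. Olig2, of motor neuron and oligodendrocyte progenitors, had 162 in EB and 163 in ES. Bhlha15, of secretory cells, had 189 in EB and 187 in ES. All 3 lay under the floor in both arrays, so no ratio is given. Their EB detection scores were 0.91 for Ascl2, 0.91 for Bhlha15 and 0.61 for Olig2, under the limit of 0.99. No such score was available for ES.

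To show the genes behind these differences at the DNA level, the 250 bases before the RefSeq gene start (build GRCm38.p6) are given 5′ to 3′ on the gene's strand for 4 members with 1 listed start, a pair that was lower and a pair that was higher in EB. Capitals mark matches, on either strand, to the letters searched. Those letters were ACAATG for Sox proteins with ACAAAG as the variant, TAAACA for forkhead proteins, AGATAA for GATA factors and TCACAC for T-box factors. E-boxes were searched as CAGCTG, with CACGTG as the second form and CAGGTG as the remaining form. The octamer bound by POU factors was searched as ATGCAAAT, a BMP SMAD element as GGCGCC, the GC box as GGGCGG and the CCAAT box by that name. The Sox15 window is chr11:69654787-69655036 on the plus strand and the Sox21 window chr14:118237031-118237280 on the minus strand. The Id3 window is chr4:136143572-136143821 on the plus strand and the Sox11 window chr12:27342719-27342968 on the minus strand.
Sox15: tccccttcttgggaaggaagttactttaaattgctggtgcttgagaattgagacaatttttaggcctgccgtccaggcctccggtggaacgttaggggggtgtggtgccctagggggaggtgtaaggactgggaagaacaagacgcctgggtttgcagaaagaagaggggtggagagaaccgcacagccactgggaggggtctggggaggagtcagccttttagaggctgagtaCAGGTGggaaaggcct
Sox21: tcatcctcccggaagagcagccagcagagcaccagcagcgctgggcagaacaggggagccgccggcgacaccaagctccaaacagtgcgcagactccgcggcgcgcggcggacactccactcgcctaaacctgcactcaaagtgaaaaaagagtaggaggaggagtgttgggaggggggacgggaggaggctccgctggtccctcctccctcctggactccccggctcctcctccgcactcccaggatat
Id3: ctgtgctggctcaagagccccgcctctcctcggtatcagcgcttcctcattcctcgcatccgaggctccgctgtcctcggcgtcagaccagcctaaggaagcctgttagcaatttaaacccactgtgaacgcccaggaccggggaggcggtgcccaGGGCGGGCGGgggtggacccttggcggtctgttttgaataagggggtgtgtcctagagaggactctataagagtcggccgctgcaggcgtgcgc
Sox11: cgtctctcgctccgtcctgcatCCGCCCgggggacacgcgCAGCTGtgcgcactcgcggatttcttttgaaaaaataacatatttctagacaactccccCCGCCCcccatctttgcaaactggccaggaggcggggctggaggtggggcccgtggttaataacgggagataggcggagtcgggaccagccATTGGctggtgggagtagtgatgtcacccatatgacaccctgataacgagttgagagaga
The Sox15 window held the E-box CAGGTG from 16 to 11 bases before the start, letters found in 17.2% of all 32851 windows of this length. The Id3 window held GGGCGG in a pair of overlapping copies, 94 to 85 bases before the start, and the Sox11 window held it on the opposite strand in 2 places. GGGCGG was found in 32.7% of all windows. The Sox11 window also held the E-box CAGCTG (13% of all windows) and, on the opposite strand 60 to 56 bases before the start, CCAAT (33.9%). None of the letters searched lay in the Sox21 window. The letters with no match in the 4 windows are held by 10.7% (ACAATG), 16.5% (ACAAAG), 12.03% (TAAACA), 9.99% (AGATAA) and 12.3% (TCACAC) of all windows. The CACGTG form is held by 6.02%, the SMAD element by 9.59% and the octamer by 1.60%. The windows of Sox21, Id3 and Sox11 held 17, 18 and 17 CG pairs and that of Sox15 held 5. The median was 6 over all windows and 17.5 over the windows of factors above the floor. These matches describe letters and not bound sites.

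The Fox genes were the largest family, with 13 members, of which 6 were above the floor. Foxp1, a repressor with a forkhead and a leucine zipper for which an isoform particular to ES cells is known, had a signal of 385 in EB and 1199 in ES. It was 3.12-fold lower, with a log2 difference of -1.64 ± 0.08. Both signals lay above the floor. The probe is not annotated to an isoform in the files.

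Foxo1, a factor that insulin and AKT signalling keep out of the nucleus, had 278 in EB and 501 in ES. It was 1.80-fold lower, with a log2 difference of -0.85 ± 0.12. Its EB signal was again near the floor. Foxm1, which drives genes of the G2 and M phases of the cell cycle, had 1137 in EB and 803 in ES, a log2 difference of 0.50 ± 0.09. Its second probe lay under the floor in both arrays.

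Foxk2, a widely expressed forkhead factor, had 720 in EB and 505 in ES by its brighter probe, a log2 difference of 0.51. Its second probe gave 423 in EB and 445 in ES, a log2 difference of -0.07. The probes of Foxk2 therefore disagreed in sign. Foxb1, of the developing brain, had 258 in EB and 192, under the floor, in ES, and was at least 1.12-fold higher. Foxj3 had 1211 in EB and 1169 in ES, a log2 difference of 0.05 that lay within 2 bead-level standard errors. Its other probes were under the floor. For the other 12 factors above the floor the difference at the brightest probe exceeded 2 bead-level standard errors. Signals under the floor were taken as read there. With its ES signal set to the floor Foxb1 gave 0.17, with a bead-level error of 0.11. The difference at the second probe of Foxk2 lay within 2 bead-level standard errors.

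The bead-level error is not the whole error of a gene's value. For 390 named genes 2 probes each exceeded the floor, and the differences read at the 2 probes were 0.40 apart on the log2 scale (root mean square). The differences of Sox4, Foxb1, Foxm1 and Foxk2, from 0.37 to 0.51, were of about this size. The gap holds the error of 2 readings, and the error of 1 reading was not measured apart. The plot of log2 differences sets all 13 factors against the middle range of all named genes.

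**Figure D2:**
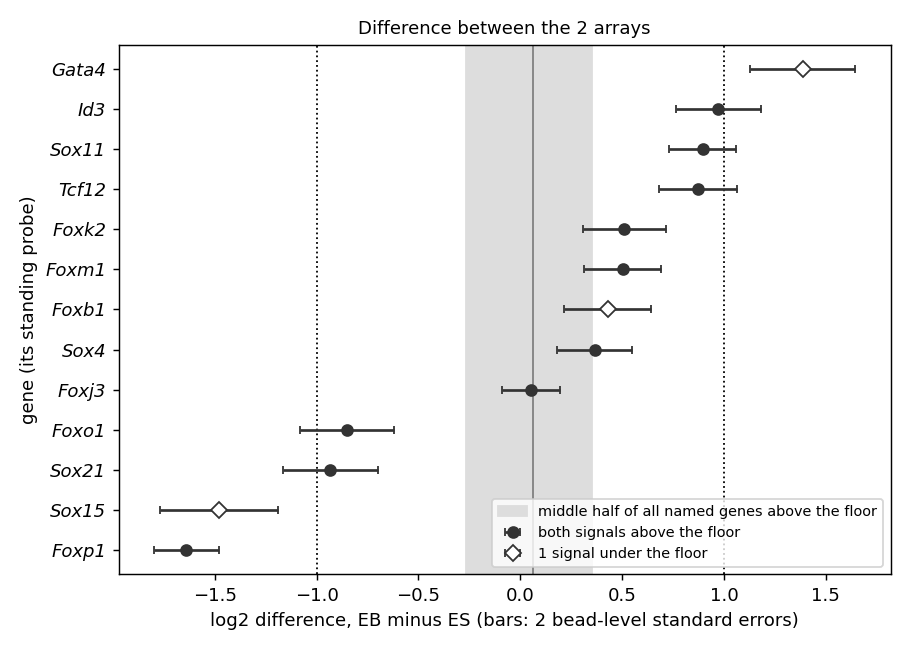
Log2 difference, EB minus ES, of the 13 factors above the floor in at least 1 array; bars are 2 bead-level standard errors, open diamonds have 1 signal under the floor, dotted lines mark the 2-fold limit, and the grey band spans the quartiles (-0.26 and 0.35) of all 3867 named genes above the floor. The upper group from Gata4 (1.39) to Tcf12 (0.87) and the lower group from Foxo1 (-0.85) to Foxp1 (-1.64) lie outside the band. Sox4, Foxb1, Foxm1 and Foxk2 (0.37 to 0.51) also lie above its upper edge, Sox4 only just, and Foxj3 lies near 0.

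The remaining 20 factors were under the floor in both arrays, with signals from 123 to 220 in EB and from 115 to 210 in ES. They comprise all 7 T-box genes, namely Tbx1, Tbx4, Tbx5, Tbx10, Tbx15, Tbx18 and Tbx22, which act mainly in the heart, limb, pharynx and body wall of later embryos. They also comprise 7 Fox genes. Foxd3 is a factor of the epiblast and of ES cells, yet its probe gave 140 in EB and 158 in ES. Foxl1 of gut mesenchyme, Foxp2 of the nervous system, Foxp3 of regulatory T cells, Foxo6 and Foxk1 were likewise under the floor. A signal under the floor does not show that a transcript is absent, since a probe can be weak. Of the 2 members that are not factors, Twistnb had 345 in EB and 332 in ES, a log2 difference of 0.06, and both Sox2ot probes were under the floor.

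**Figure D3:**
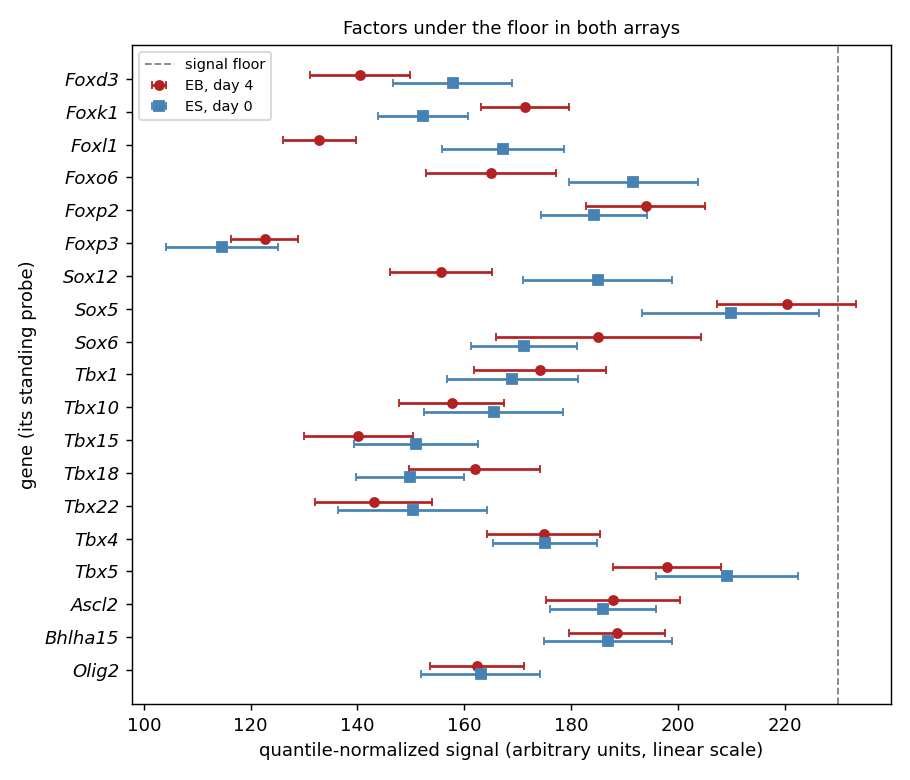
Quantile-normalized signal (horizontal, linear scale, arbitrary units) of 19 of the 20 factors under the floor in both arrays, with EB as circles, ES as squares and bead-level standard errors as bars. All points lie left of the dashed floor at 230.0, and the bars of EB and ES overlap for most genes.

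The sizes of the differences were set beside those of other genes, as a description of these arrays with no test. Among factors above the floor in at least 1 array, 3 of 13 (23.1%) were past the 2-fold limit, against 9.08% of all named genes. The share was 5 of 22 homeobox genes (22.7%) and 5 of 83 Zfp-named zinc finger genes (6.02%). At a 1.5-fold limit 8 of 13 factors counted, 4 higher and 4 lower, against 24.4% of all named genes (12.4% higher and 12% lower). A gene kept through 1 array alone is more likely to differ, so genes above the floor in both arrays were also counted. There 1 of 10 factors was past the 2-fold limit, against 7.15% of 3313 named genes, and 6 of 10 past the 1.5-fold limit, against 21.3%. Under that condition the 2-fold count was near the background. The median absolute log2 difference of these 10 factors was 0.86, against 0.28 for all named genes above the floor in both arrays, 0.57 for 10 homeobox genes and 0.32 for 69 Zfp-named genes.

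**Figure D4:**
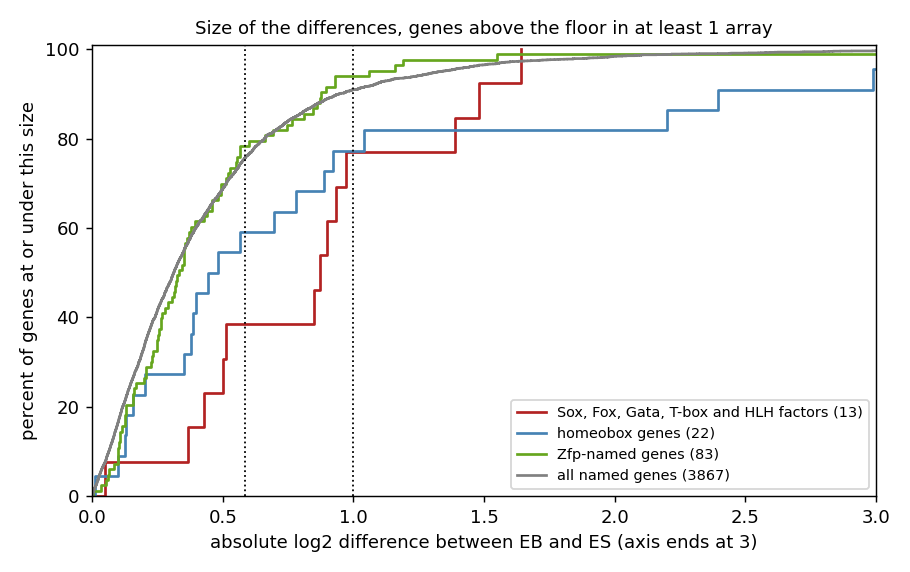
Cumulative percent of genes (vertical) at or under a given absolute log2 difference between EB and ES (horizontal, ending at 3), for the 13 factors, 22 homeobox genes, 83 Zfp-named genes and all 3867 named genes above the floor in at least 1 array; dotted lines mark the 1.5-fold and 2-fold limits. The curve of the factors climbs late, with 8 of 13 factors past the 1.5-fold limit, and ends with Foxp1, while homeobox genes reach larger differences.

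In signed terms the 13 factors had 9 positive and 4 negative differences, with a median of 0.43, against 0.06 for all named genes, 0.38 for homeobox genes and 0.25 for Zfp-named genes. The factor median is the value of Foxb1, whose ES signal was under the floor. For genes above the floor in both arrays the medians were 0.43 for factors and 0.06 for all named genes. Without a detection filter they were 0.0142 for the 33 factors and 0.0224 for all 8102 named genes. The lower members were Foxp1, Sox15, Sox21 and Foxo1. The positive median therefore sits beside 4 lower genes with differences from -1.64 to -0.85.

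Genes that work with these families were read from fixed lists. Of 34 cofactors and partners 13 could be named and 11 were above the floor. Past the limit, against 3.72% higher and 5.35% lower over all named genes above the floor, 2 of them were higher and 0 lower. They were Lmo2, which bridges GATA and helix-loop-helix factors in blood progenitors (1554 in EB and 214, under the floor, in ES, at least 6.76-fold higher), and Tle3, a Groucho corepressor (746 in EB and 348 in ES, 2.14-fold higher). At the 1.5-fold limit 6 of the 11 were higher and 2 lower, against 12.4% and 12% of all named genes above the floor. Smad4, the shared SMAD of BMP and Nodal signals, had 4961 in EB and 3153 in ES, a log2 difference of 0.65. The 2 lower genes were Ncor1 (1370 in EB and 2596 in ES, -0.92) and Tle1 (431 in EB and 665 in ES, -0.62). Smad4, Ncor1 and Tle1 are named after their values were seen. Of 12 blood and endothelial markers 5 could be named, of which 4 were above the floor in EB and 0 in ES. Of 9 trophoblast markers 4 could be named, 3 of them above the floor in EB and 2 in ES. They differed in direction. Tfap2c was 5.42-fold lower in EB, while Eomes was 7.06-fold and Plac1 at least 2.36-fold higher. The summed signal of the 4 was 3162 in EB and 3900 in ES. Of 10 markers of the primitive streak 2 could be named, both higher past the limit, against 3.72% of all named genes above the floor. Eomes is 1 of these 2 markers and is counted in both lists.

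Of 67 other T-box, HMG-box and helix-loop-helix genes 26 could be named and 14 were above the floor. Eomes, which acts in the primitive streak and is a T-box gene although its symbol lacks the letters, was the 1 gene past the limit, 7.06-fold higher. It had 1828 in EB and 259 in ES. A T-box gene was thus higher past the limit although none of the 7 named genes with a Tbx symbol was above the floor. Mga, also a T-box gene of this list, was above the floor in both arrays, with 348 in EB and 385 in ES. The median of the 14 genes above the floor was -0.15. Their share past the limit was 7.14%, against 9.08% of all named genes above the floor. Of 18 genes of Nodal, BMP and FGF signalling 5 could be named, all above the floor. Past the limit were 2 of the 5 (40%), against 9.08% of all named genes above the floor. Fgf10 (7.14-fold) and Fst (3.95-fold) were higher past the limit, and Fgf4, a growth factor made by ES cells, had 156, under the floor, in EB and 310 in ES, at least 1.35-fold lower.

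The direction of each of the 13 differences was the same under 6 other ways of making the values. All 6 reuse the same 2 arrays, and setting signals to the floor cannot reverse a sign. The direction was therefore not tested by them. The size was not. From the authors' series value table, which stretches dim signals, Gata4 gave 4.03 and Sox15 -4.38. With signals under the floor set to the floor they gave 0.98 and -0.77, under the limit. Foxp1 ran from -2.33 to -1.64 and was past the 2-fold limit in all 6. Id3 ran from 0.97 to 1.09 and passed the limit in 4 of the 6. Sox21 (-1.11 and -1.85), Foxo1 (-1.02 and -1.74) and Tcf12 (1.02 and 1.57) passed it with normexp background and with the series value table, and Foxb1 (1.68) with that table alone. Sox11, from 0.90 to 0.98, passed in 0 of the 6. The plot of alternatives shows that Foxj3, Sox4, Sox11 and Id3, all with signals above 1000 in both arrays, moved least.

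**Figure D5:**
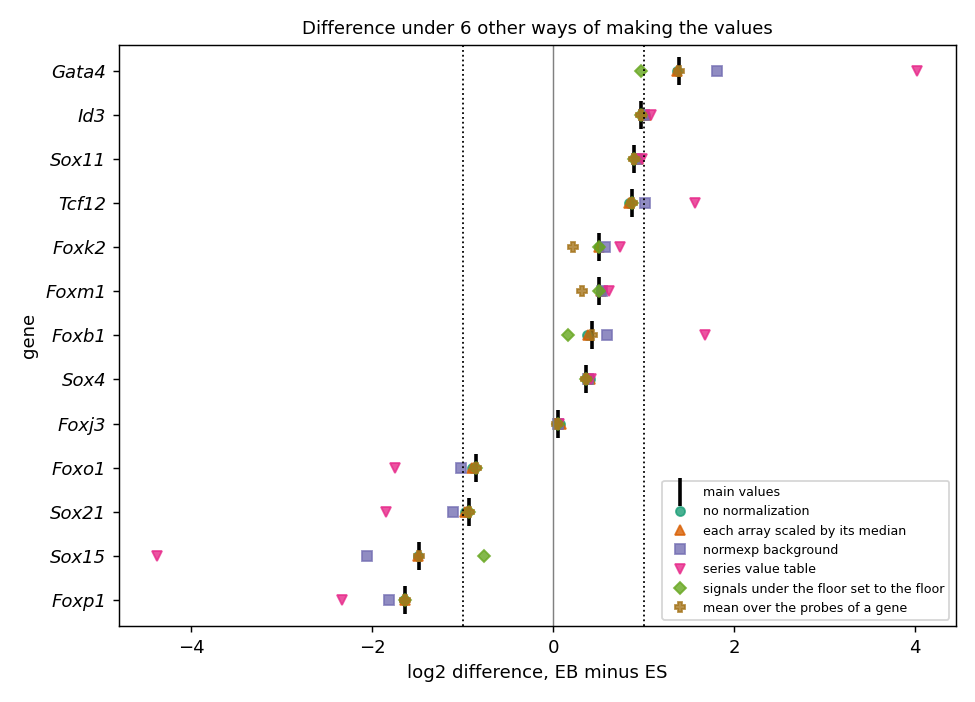
Log2 difference, EB minus ES (horizontal), of the 13 factors in the main values (black bars) and under 6 other ways of making the values (coloured symbols); dotted lines mark the 2-fold limit. No symbol lies on the other side of 0 from its bar, and the widest ranges belong to Sox15 (-4.38 to -0.77) and Gata4 (0.98 to 4.03), each with 1 signal under the floor.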

How the data were processed

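RNA of 1 EB and 1 ES sample was labelled with biotin and hybridised to 1 bead array each, per the labels. The deposited intensity of each probe is a mean over beads exported from BeadStudio 2.3.41 with normalization set to none, per the file headers. BeadStudio 2, RMA and limma appear, with no role, in the submitters' processing notes. A detection score was deposited for EB only, per the file headers. The bead spread was read as a standard error, because its slope on the number of beads, on log scales, was -0.47 in EB and -0.44 in ES for signals of at least 1000. The probes' genome build was not given in the sources used.

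Intensities of 46643 probes were quantile normalized over both arrays without background subtraction and put on the log2 scale (pandas 2.3.3, numpy 2.4.6). Of 11857 probes with a padded number 9796 (82.6%) matched a RefSeq gene (GRCm38.p6, used for names). Detection required the common floor in at least 1 array. Normexp background (offset 50) was run in limma 3.58.1 under R 4.3.3. Promoter windows are RefSeq's, and 10 of the 13 factors above the floor had one. The calculation was tested on simulated data. There genes with a signal above 1000 were changed 4-fold, with bead-level error alone. Changes in dim genes, smaller changes and variation between cultures were not simulated. Members, lists and limits were chosen with earlier results of these data known. Under the floor 1 factor is not reported here. Every factor above the floor is named with both signals, and from the lists of partners, related genes and signalling genes up to 4 each past the 2-fold limit; marker lists are given by counts and a few examples.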

Additional observations from a re-analysis of the deposited data

How the results depend on the processing

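No paired analysis was possible because EB and ES have 1 array each, and none could be left out. Of the 33 factors 3 were past the 2-fold limit. The number was 4 without normalization or with median scaling (9.21% of all named genes in each), and 3 with the mean over probes (8.04%). The looser ES detection gave 3 of 22 factors, against 6.77% of all named genes. No detection filter gave 3 of 33, against 4.33% of all named genes. A limit of 2 bead-level standard errors also gave 3, with no share over all named genes worked out. The number was 7 with normexp background and 8 with the series value table, where dim signals spread further. Among all named genes the share past the limit was then 12.3% and 25.7%, against 9.08% in the main values. Raising dim signals to the floor gave 1 (7.91% of all named genes), and requiring the floor in both arrays gave 1 (7.15%). A 1.5-fold limit gave 8 (24.4% of all named genes) and a 4-fold limit 0 (1.63%). The median log2 difference of 0.43 ran from 0.32 to 0.62 under the other settings, except 0.0324 with the looser ES detection and 0.0142 without a detection filter, which add factors under the floor. Over all named genes the medians under those 2 settings were 0.0015 and 0.0224. Signal over background limits what can be read for the 20 dim factors.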
